A study of Mus musculus with 6 samples.

Results

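The nuclear-encoded subunits of the mitochondrial respiratory chain were followed as a module in intestinal crypts of WT and Mtg16-/- mice. Members were all gene symbols of the deposited expression table that begin with Nduf followed by a, b, c, s or v, that begin with Uqcr, with Cox4 to Cox8 or with Atp5, or that are Sdha, Sdhb, Sdhc or Sdhd. The rule reads the symbol and uses no measured value. This gave 92 of 24736 symbols, of which 36 encode subunits of complex I, 4 of complex II, 8 of complex III, 19 of complex IV and 15 of complex V. The other 10 carry a matching symbol but encode no subunit of the enzymes, and were kept apart as Ndufaf1 to Ndufaf8, Cox7a2l and Atp5s. Subunits encoded by mitochondrial DNA were not analysed here.

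The mice were 12-week-old males, 3 WT and 3 Mtg16-/-, with 1 library from each mouse and no treatment. The knockout, called CRISPR-induced in the labels and a gift in the methods, is given without a promoter or Cre that would restrict it to a cell type. Crypts of the full length of the gut were freed by 30 minutes in cold buffer with 2 mM EDTA, and 200 ng of total RNA were depleted of ribosomal RNA and amplified over 14 cycles. MTG16 is a transcriptional co-repressor that the study examined in the daughters of crypt stem cells.

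Values are TPM, transcript abundances that correct for transcript length and set every library to the same total, so that levels of different genes can be set side by side but read numbers are not kept and the depth is unknown. Fold changes are differences of log2(TPM + 1), Mtg16-/- minus WT, a scale that shrinks the change of weakly expressed genes. Genes with a mean of at least 1 TPM were tested with limma across all 12268 such genes, with Benjamini-Hochberg adjustment over all of them, and a gene counted as called at an adjusted p under 0.1. With 3 mice against 3, an exact permutation test of a single value cannot go below p = 0.1. The 7 epithelial markers summed to 5894 to 9237 TPM over the libraries, and markers of muscle and stroma were scarce, with summed TPM of 1.34 to 4.28 over 5 muscle genes and of 11.2 to 18.5 over 7 stromal genes. Cbfa2t3, the gene for MTG16, was listed at 3.67, 6.69 and 4.52 TPM in WT against 4.62, 6.43 and 3.23 TPM in Mtg16-/-, so its level did not separate the genotypes and directions rest on the labels. WT replicate 1 stood apart, with a summed TPM of 19 enterocyte markers of 45018 against 15694 and 19332 in WT replicates 2 and 3 and against 15361, 8659 and 8075 in Mtg16-/-. All 19 of these markers had a lower mean in Mtg16-/-, and all were detected in both groups. At an unadjusted p under 0.05, 11 of them were lower, against 8.05% of all genes. Without WT replicate 1, 18 were lower and 8 passed, and 5 and 6 passed without Mtg16-/- replicates 2 and 3. Markers of other cell types also differed, with sums in Mtg16-/- above every WT library for 9 Paneth markers (10386 to 24727 TPM in WT, 29759 to 38808 TPM in Mtg16-/-), 9 stem cell markers (901 to 1542 and 1669 to 2219 TPM) and 8 enteroendocrine markers (242 to 306 and 407 to 434 TPM), while 7 T cell markers all had a lower mean with overlapping sums. All 5 tuft markers and 5 of 8 goblet markers had a lower mean, with overlapping sums. Without WT replicate 1, 2 of the 9 Paneth markers were lower, and all stem cell and enteroendocrine markers stayed higher. The part of these markers in the results on the chain was not tested. In bulk RNA, fewer cells of a type and less RNA per cell cannot be told apart.

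The respiratory chain sits in the inner mitochondrial membrane. Complexes I and II pass electrons from NADH and succinate to ubiquinone, complex III hands them on to cytochrome c, and complex IV delivers them to oxygen. Complexes I, III and IV pump protons, and complex V, the ATP synthase, lets the protons flow back to make ATP. Most subunits are encoded in the nucleus and imported, and some exist in alternative forms encoded by separate genes that differ between tissues.

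The module was highly expressed in crypts. The 82 subunit genes together took 3.62%, 3.26% and 3.63% of all TPM in WT against 3.21%, 3.05% and 3.61% in Mtg16-/-, so the groups overlapped. The ATP synthase held the highest single level, Atp5b, its catalytic beta subunit, at 2037 ± 177 TPM (SD, n = 3) in WT. Over the tested genes other than Ndufs5, the median WT level was 229 TPM in complex I, 385 TPM in complex II, 516 TPM in complex III, 831 TPM in complex IV and 636 TPM in complex V. The 6 complex IV genes below 1 TPM are not in that median, which is 427 TPM, the level of Cox7a2, over all 19. Levels within complex II were nearly equal, from 374 TPM for Sdha to 415 TPM for Sdhb. Complex I ran from 40.3 TPM for Ndufa11 to 491 TPM for Ndufa3, with Ndufs5 apart from both. Ndufs5, an accessory subunit, was listed at 7.63, 7.40 and 0 TPM in WT and at 0, 0 and 6.55 TPM in Mtg16-/-, and no fold change is given for it.

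For most subunits of complex IV with alternative forms, the general form was listed at a high level and the muscle or lung form at or near 0. A listed 0 can be a failed estimate, since Rpl26, a ribosomal protein gene that every cell uses, is also listed at 0 in all 6 libraries. Cox4i1, the general form of subunit 4, stood at 1502, 1396 and 1631 TPM in WT and at 1387, 1428 and 1453 TPM in Mtg16-/-, while its lung form Cox4i2 was listed at 0 in all 6 libraries. Cox4i1 lies on chromosome 8, 1.95 Mb from Cbfa2t3. Cox8b, the heart and muscle form of subunit 8, and the related Cox8c, Cox7b2 and Ndufa4l2 were also listed at 0 in all 6, and Cox6a2, the muscle form of subunit 6A, did not exceed 0.73 TPM. These 6 genes, the only members below the mean of 1 TPM, were not tested. The exceptions were Cox7a1, named for heart and muscle, at 283, 127 and 137 TPM in WT, and Cox6b2, the testis form of subunit 6B, at 8.20, 6.0 and 5.08 TPM.

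**Figure D1:**
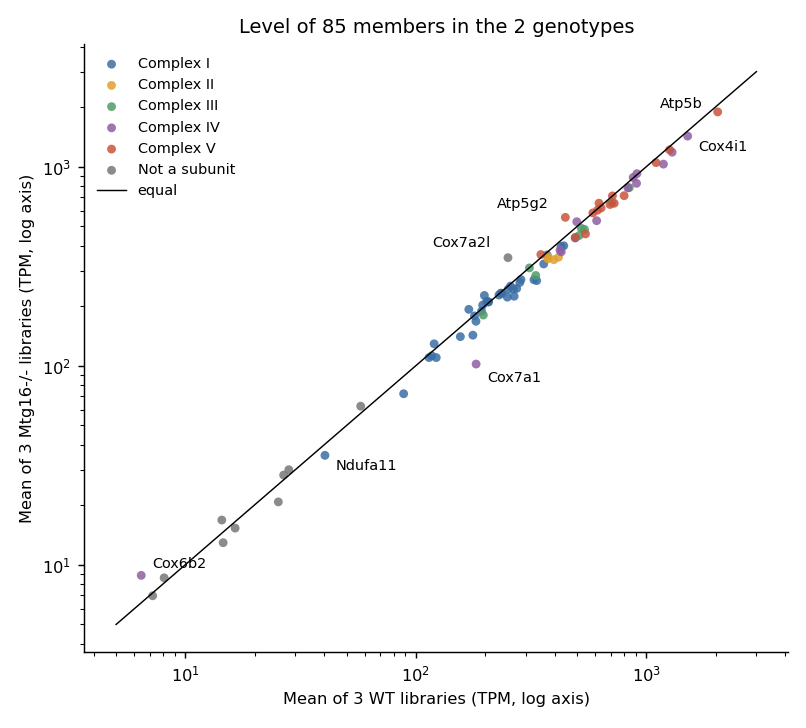
Mean TPM in Mtg16-/- (vertical axis, log scale) against mean TPM in WT (horizontal axis, log scale) for 85 tested members, n = 3 libraries per genotype, coloured by complex, with the line of equal levels. The points follow the line over the whole range, from Cox6b2 at 6.43 TPM to Atp5b at 2037 TPM in WT, and Cox7a1 and Cox7a2l lie farthest from it among the abundant members. Ndufs5, listed at 0 in 3 libraries, is left out.

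No member was called between the genotypes. By limma 0 of 86 tested members had an adjusted p under 0.1, against 4 of all 12268 genes (0.0326%), and the smallest adjusted p of a member was 0.269. At an unadjusted p under 0.05 there were 3 members (3.49%), where all genes gave 14.6%. They were Cox7a2l, higher in Mtg16-/- (6.53% of all genes), and Cox7a1 and Ndufa13, lower (8.05% of all genes). After quantile normalization 3 were higher (Atp5g2, Cox7a2l and Ndufb11) and 0 lower. The 3 libraries of each group did not overlap for 13 members (15.1%), against 21% of all genes. Of these 13, Ndufb11, Atp5g2 and Cox7a2l were higher in Mtg16-/- (9.94% of all genes), and Ndufa5, Ndufa6, Ndufa11, Ndufa13, Ndufb7, Ndufs1, Ndufs4, Ndufaf3, Cox7a1 and Atp5j2 were lower (11.1% of all genes). Without Mtg16-/- replicate 2 the count at an unadjusted p under 0.05 was 1, and without Mtg16-/- replicate 3 it was 6. Throughout, the share of all genes at an unadjusted p under 0.05 is that of the main fit. Counts under other scalings or with a mouse left out have no such share beside them.

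The estimates were narrow enough to bound the differences. For 84 of the 86 tested members the 95% interval of the log2 fold change lay within 1 on either side of 0, which is a 2-fold change, and for 74 it lay within 1.5-fold. The same held for 10220 and 5654 of all 12268 genes. Exceptions to the wider bound were Cox7a1 and Ndufs5. Levels also varied little within a genotype, with a median SD of 0.138 on the log2 scale for the 73 subunits at 50 TPM or more, against 0.190 for the 3013 genes of that level.

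More members lay below 0 than above it. The median log2 fold change of the 86 members was -0.10, against -0.03 for all tested genes, and 65 of the 86 (75.6%) lay below 0, against 53.6% of all genes. The number below 0 depended on scaling, at 60 members (69.8%, all genes 50.8%) after median-ratio rescaling, 54 (62.8%, all genes 48.0%) after rescaling without the defensin (Defa) genes of Paneth cells and 48 (55.8%, all genes 46.6%) after quantile normalization. The share of members stayed above that of all genes under each of these scalings. Without Mtg16-/- replicate 2 the median of members was -0.05 against -0.06 for all genes, with 65.1% and 58.0% below 0. Median log2 fold changes by complex were -0.09 in complex I, -0.17 in complex II, -0.12 in complex III, -0.14 in complex IV and -0.05 in complex V, all below 0 under each scaling apart from complex I, at 0.00 after quantile normalization. With each mouse left out they ranged from -0.16 to -0.04, -0.27 to -0.11, -0.19 to -0.07, -0.20 to -0.05 and -0.13 to -0.01. The value nearest 0 came without Mtg16-/- replicate 2 in complexes I and IV, without WT replicate 1 in complex II and without WT replicate 3 in complexes III and V. The value farthest from 0 came without WT replicate 2 in complex II and without Mtg16-/- replicate 3 in the other complexes. The 10 members that are not subunits had a median of 0.06. Across the 75 subunits other than Ndufs5, the fold change had little rank correlation with transcript length (371 to 4715 nucleotides, Spearman's rho -0.03) or to level (rho -0.02), a description across genes, which share libraries.

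**Figure D2:**
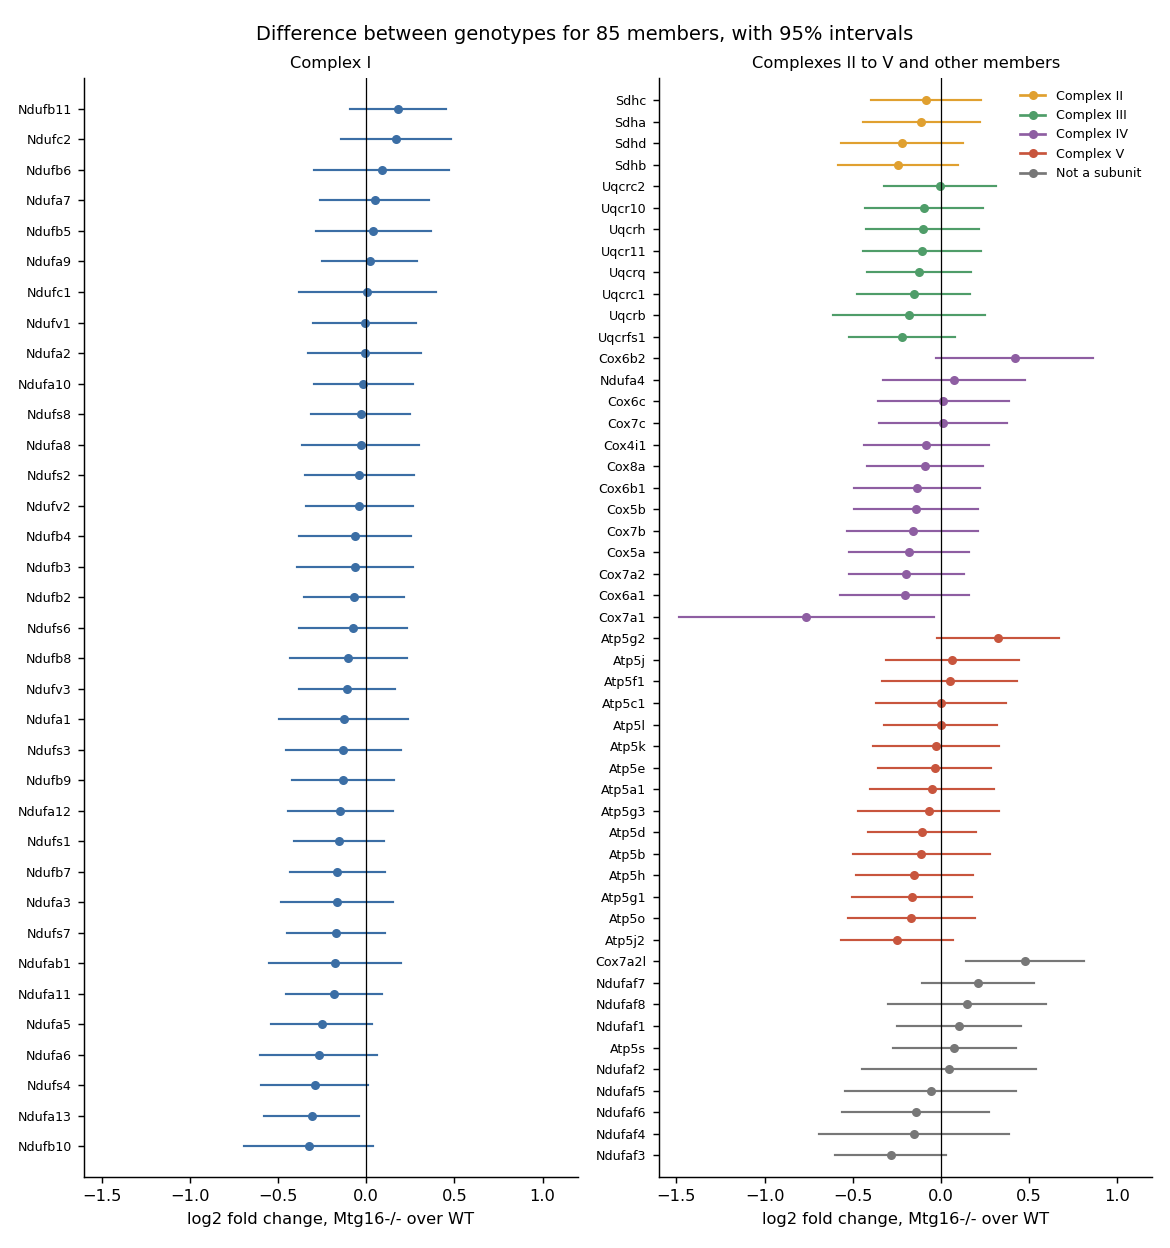
Log2 fold change, Mtg16-/- over WT on log2(TPM + 1), of 85 tested members (dots) with 95% intervals from limma (lines), complex I on the left and the other complexes and members on the right, n = 3 libraries per genotype. Nearly all intervals include 0, and those of Cox7a1, Ndufa13 and Cox7a2l do not. The intervals are not adjusted for the number of genes.

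Complex I oxidises NADH and is the largest of the complexes. Of its 36 genes 29 lay below 0, 7 with groups that did not overlap below WT, and 1 above. These 8 are 22.2% of the complex, near the 21% of all genes in either direction. By direction, 11.1% of all genes lay apart below WT and 9.94% above. Ndufa13, also known as GRIM19, an accessory subunit, measured 176, 163 and 190.45 TPM in WT and 146, 136 and 144 TPM in Mtg16-/-. All 3 Mtg16-/- libraries lay below WT, by a log2 fold change of -0.31 (SE 0.12, adjusted p = 0.308 by limma). It is described because of this value, and its locus, chr8:69894163-69902558, overlaps Tssk6. Ndufb10, a membrane-arm subunit with the lowest fold change of the complex apart from Ndufs5, had 327, 301 and 374 TPM in WT and 248, 238 and 317 TPM in Mtg16-/- (log2 fold change -0.33, SE 0.16, adjusted p = 0.379 by limma). Its groups overlapped through Mtg16-/- replicate 3. Ndufb11, a membrane-arm subunit on the X chromosome, had 194, 199.9 and 200.4 TPM in WT and 218, 212 and 246 TPM in Mtg16-/-, a log2 fold change of 0.18 with groups apart. The locus of Ndufb11 overlaps Rbm10, and the strand setting of the counting is not given in the sources used here. Ndufc2, also of the membrane arm, was at 162, 168 and 179 TPM against 165, 196 and 215 TPM. Ndufa3, the most abundant subunit, had 482, 451 and 539 TPM in WT and 421, 413 and 479 TPM in Mtg16-/-, with overlap.

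Complex II, succinate dehydrogenase, is also an enzyme of the tricarboxylic acid (TCA) cycle. Sdha, the flavoprotein that oxidises succinate, was measured at 408, 314 and 399 TPM in WT and 359.8, 336 and 337 TPM in Mtg16-/-. Sdhb, the iron-sulphur subunit, was at 456, 363 and 427 TPM in WT and 364, 311 and 376 TPM in Mtg16-/-. Sdhc, a membrane anchor, was at 385, 329 and 409 against 358, 335 and 363 TPM, and Sdhd, the other anchor, at 434, 348 and 407 against 315, 316 and 390.2 TPM. In all 4 genes the groups overlapped because WT replicate 2 was low. Their log2 fold changes were -0.11, -0.24, -0.08 and -0.22, and the smallest adjusted p was 0.452 by limma.

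Complex III passes electrons from ubiquinol to cytochrome c, and all 8 of its genes had overlapping groups. Uqcrfs1, the Rieske iron-sulphur protein, measured 361, 304 and 328 TPM in WT and 279.5, 265 and 306 TPM in Mtg16-/-, the lowest fold change of the complex at -0.22 on the log2 scale. The spread was wider for Uqcrb, which binds near the ubiquinone site, at 616, 452 and 463 TPM against 456, 369 and 525 TPM. Uqcrh, the hinge protein of cytochrome c1 and the most abundant of the complex, was at 839.97, 795 and 892 TPM against 749.9, 758 and 843 TPM. Uqcrc2, core protein 2, differed least, with 338, 278 and 315 TPM against 290.1, 295 and 343 TPM. No direction can be read for Uqcrc2. Uqcr10, a small subunit, was at 487, 541 and 537 TPM in WT and 448, 458 and 564 TPM in Mtg16-/-. The adjusted p of the complex was 0.445 or more by limma.

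Complex IV, cytochrome c oxidase, held the member with the lowest fold change apart from Ndufs5, Cox7a1 (chr7:30184171-30186030). Its TPM was 283, 127 and 137 in WT and 127, 78.0 and 101 in Mtg16-/-, so the groups were separated by less than 1 TPM and most of the difference between the means came with WT replicate 1. The log2 fold change was -0.76 (SE 0.31, 95% interval -1.49 to -0.04, adjusted p = 0.323 by limma), and without WT replicate 1 it was -0.40 (adjusted p = 0.470 by limma). The level of Cox7a1 was highest in the library with the highest enterocyte marker sum, and the part of that in the difference was not tested. Muscle markers stayed at 4.28 TPM or less in sum in every library. Cox7a2, the liver form of the same subunit, was at 471, 411 and 398 TPM in WT and 380.3, 330.5 and 408 TPM in Mtg16-/-, with overlapping groups and a log2 fold change of -0.20. Cox7a1 made up 28.9% ± 7.49 (SD, n = 3) of the 7A transcripts in WT and 21.3% ± 3.20 in Mtg16-/-, shares that overlapped (exact permutation p = 0.2).

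Cox7a2l (chr17:83501917-83514333), which resembles subunit 7A but acts in joining complexes III and IV into supercomplexes, went the other way. It had 231, 231 and 290.05 TPM in WT and 320.4, 342 and 383 TPM in Mtg16-/-. All 3 Mtg16-/- libraries lay above WT, by a log2 fold change of 0.48 (SE 0.15, 95% interval 0.14 to 0.81, adjusted p = 0.269 by limma), the smallest adjusted p of all members. Each library left out in turn gave between 0.41 and 0.59. Of the summed TPM of Cox7a1, Cox7a2 and Cox7a2l, Cox7a2l took 29.5% ± 5.85 in WT and 42.4% ± 3.45 in Mtg16-/- (SD, n = 3), without overlap (exact permutation p = 0.1, the smallest possible). The sum of the 3 genes overlapped between the groups. Cox7a1 and Cox7a2 alone summed to 754, 538 and 535 TPM in WT and 507, 409 and 509 TPM in Mtg16-/-, without overlap. That sum was highest in WT replicate 1. Cox7a2l lay above every WT library and that sum below every one, so the separation of the Cox7a2l share was fixed by them. The share is therefore no further result.

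The promoters of the genes with opposite estimates are shown, as RefSeq gives them on GRCm38.p6, from 250 bases before to 50 after the start, 5′ to 3′ on the strand of the gene. Capitals mark exact matches, on either strand, to letters known from promoters of mitochondrial genes, which are the CCAAT box CCAAT, the SP motif GGGCGG, the NRF1 motif (GCGCA, any base, GCGC), the ETS motif CCGGAAG and the YY1 motif AAGATGGC. Cox7a1 lies at chr7:30183921-30184220 on the plus strand and holds 2 CCAAT boxes. Cox7a2l lies at chr17:83514284-83514583 on the minus strand and holds 2 SP motifs and no CCAAT box. The promoter of Cox7a2, whose log2 fold change was -0.20, also holds an SP motif and no CCAAT box.
Cox7a1: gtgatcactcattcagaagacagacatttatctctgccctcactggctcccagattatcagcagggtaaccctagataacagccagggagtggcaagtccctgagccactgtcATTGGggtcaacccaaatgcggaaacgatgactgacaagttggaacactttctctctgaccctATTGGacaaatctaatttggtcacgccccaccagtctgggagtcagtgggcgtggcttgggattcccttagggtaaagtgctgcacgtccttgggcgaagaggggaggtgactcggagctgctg
Cox7a2l: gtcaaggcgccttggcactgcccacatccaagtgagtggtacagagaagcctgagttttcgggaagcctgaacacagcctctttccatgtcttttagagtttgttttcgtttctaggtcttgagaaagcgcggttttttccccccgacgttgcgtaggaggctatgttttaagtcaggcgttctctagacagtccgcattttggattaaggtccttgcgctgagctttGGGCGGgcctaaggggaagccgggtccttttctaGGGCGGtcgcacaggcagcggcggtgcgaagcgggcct

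Among the other complex IV genes, Cox6b2 was at 8.20, 6.0 and 5.08 TPM in WT and 8.52, 7.96 and 9.99 TPM in Mtg16-/-, the highest fold change of the complex but at a low level, with groups that overlapped (log2 fold change 0.42, SE 0.19, adjusted p = 0.362 by limma). Its general counterpart Cox6b1 was at 1300.3, 1252 and 1324 TPM against 1217, 1038 and 1287 TPM. Cox6a1, the liver form of subunit 6A, was at 1245, 1060.5 and 1249.9 TPM in WT and 1066, 917 and 1102 TPM in Mtg16-/-. Both genes overlapped between the genotypes. Cox8a, the general form of subunit 8, was at 812, 802 and 878 TPM against 762, 721 and 861 TPM. Ndufa4, once assigned to complex I and now to complex IV, was at 556, 504 and 435 TPM against 466, 478 and 640.2 TPM, and its groups overlapped.

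Complex V, the ATP synthase, included a contrast between genes for the same protein. Its membrane ring is built of c subunits, and Atp5g1, Atp5g2 and Atp5g3 encode the same mature c subunit behind different import sequences. Atp5g2 was at 392, 441 and 501 TPM in WT and 509.6, 545 and 612 TPM in Mtg16-/-, without overlap (log2 fold change 0.32, SE 0.15, adjusted p = 0.364 by limma). Atp5g1 was at 476, 483 and 516 TPM in WT and 427, 384 and 512 TPM in Mtg16-/- (log2 fold change -0.17). Atp5g3, the most abundant, was at 1269.8, 969 and 1062 TPM against 1013, 941 and 1187 TPM (-0.07). The groups of Atp5g1 and Atp5g3 overlapped. The sum of the 3 genes was nearly level, at 2036 ± 127 TPM in WT and 2043 ± 235 TPM in Mtg16-/- (SD, n = 3).

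The shares of Atp5g2 and Atp5g1 within the c subunit transcripts did not overlap between the genotypes. Atp5g2 supplied 18.3%, 23.3% and 24.1% of c subunit transcripts in WT and 26.1%, 29.2% and 26.5% in Mtg16-/-, means of 21.9% ± 3.13 and 27.3% ± 1.66 (SD, n = 3). Atp5g1 supplied 22.3%, 25.5% and 24.8% in WT and 21.9%, 20.5% and 22.2% in Mtg16-/-. The gap was narrow for Atp5g1, and each had the smallest possible exact permutation p of 0.1. The share of Atp5g3, 53.9% ± 4.78 and 51.2% ± 0.849, overlapped (exact permutation p = 0.6). A share within a library is not changed by a single scaling factor per library.

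The promoters of Atp5g1 and Atp5g2, printed because their shares lay apart in opposite directions, hold different motifs. Atp5g1, at chr11:96075582-96075881 on the minus strand, holds 5 CCAAT boxes, 2 of which overlap. Atp5g2, at chr15:102670998-102671297 on the minus strand, holds an NRF1 motif and an SP motif and no CCAAT box. The promoter of Atp5g3 holds 1 NRF1 motif and 1 CCAAT box. A match describes letters and says nothing of a factor bound there.
Atp5g1: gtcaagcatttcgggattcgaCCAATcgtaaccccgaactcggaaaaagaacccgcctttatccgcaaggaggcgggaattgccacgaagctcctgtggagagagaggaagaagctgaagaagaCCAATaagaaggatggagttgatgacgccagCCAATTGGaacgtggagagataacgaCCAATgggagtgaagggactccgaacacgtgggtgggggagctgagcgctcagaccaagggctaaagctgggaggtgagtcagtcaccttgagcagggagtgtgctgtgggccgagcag
Atp5g2: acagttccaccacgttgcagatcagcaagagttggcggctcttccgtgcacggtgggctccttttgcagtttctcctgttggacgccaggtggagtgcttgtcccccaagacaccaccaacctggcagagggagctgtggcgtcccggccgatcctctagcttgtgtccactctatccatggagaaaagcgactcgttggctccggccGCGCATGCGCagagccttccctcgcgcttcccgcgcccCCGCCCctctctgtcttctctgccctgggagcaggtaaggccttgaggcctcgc

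**Figure D3:**
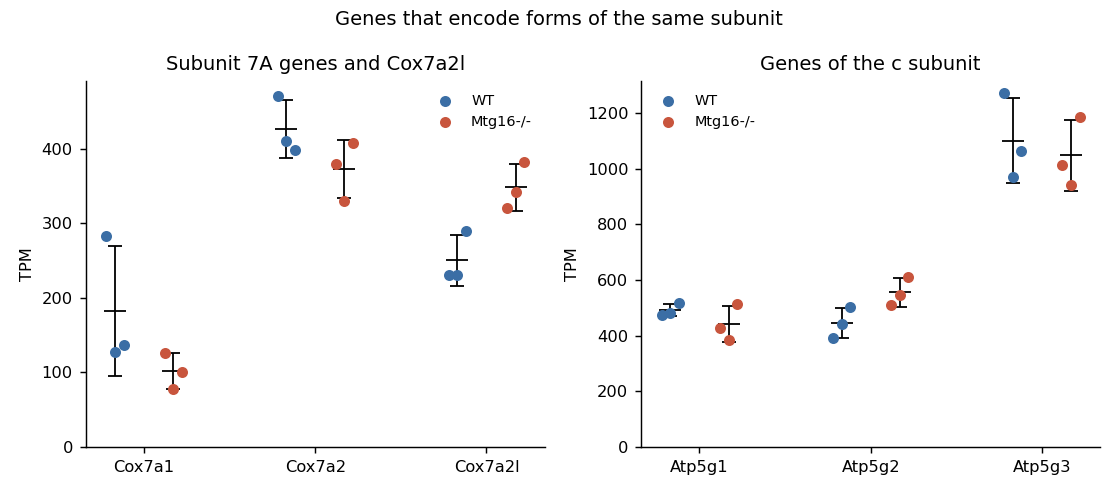
TPM by library (dots), with mean and SD (bars, n = 3), for the 7A genes and Cox7a2l on the left and the c subunit genes on the right, WT in blue and Mtg16-/- in red. Cox7a2l and Atp5g2 sit higher in every Mtg16-/- library than in any WT library, and the spread of Cox7a1 in WT comes from replicate 1 at 283 TPM.

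Among the remaining ATP synthase genes, Atp5j2, the f subunit of the membrane part, had 555, 537 and 539 TPM in WT and 458, 407 and 512 TPM in Mtg16-/-. All Mtg16-/- libraries were lower, by a log2 fold change of -0.25 (SE 0.14, adjusted p = 0.423 by limma). Atp5b was at 2126, 1834 and 2152 TPM in WT against 1916, 1749 and 1981 TPM (log2 fold change -0.11). The peripheral-stalk subunits Atp5o and Atp5j differed in the sign of the mean, Atp5o at 868, 731 and 801 TPM against 736, 618 and 787 TPM and Atp5j at 665, 566 and 637 TPM against 596, 587 and 781 TPM, both with overlap. The locus of Atp5j overlaps Gabpa.

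Complex I assembly factors carry the Nduf stem but leave the finished enzyme. Ndufaf1 to Ndufaf8 lay between 5.64 and 67.5 TPM in single libraries. Only Ndufaf3 among them had groups apart, with 26.8, 25.4 and 23.6 TPM in WT and 20.04, 18.3 and 23.56 TPM in Mtg16-/- (log2 fold change -0.29, adjusted p = 0.375 by limma). The gap was very narrow, with 23.6 TPM in WT replicate 3 against 23.56 TPM in Mtg16-/- replicate 3. Atp5s, coupling factor B, was at 7.25 to 9.33 TPM over the 6 libraries.

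Summed by complex, the libraries of the 2 genotypes overlapped. Complex I summed to 8241 ± 479 TPM in WT and 7728 ± 658 TPM in Mtg16-/- (SD, n = 3), a ratio of 0.938. Complex II gave 1560.3 ± 179 and 1387 ± 84.2 TPM (0.889), and complex III 3958 ± 184 and 3638 ± 340.5 TPM (0.919). Single libraries overlapped in each of the 5 complexes. Complex IV gave 9651 ± 579.9 and 8967 ± 839.9 TPM (0.929), and complex V 11614 ± 747 and 11148 ± 983 TPM (0.960). Of 75 subunits, 43 had their lowest value in Mtg16-/- replicate 2 and 23 their highest in Mtg16-/- replicate 3, while 31 had their highest in WT replicate 3 and 20 in WT replicate 1.

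**Figure D4:**
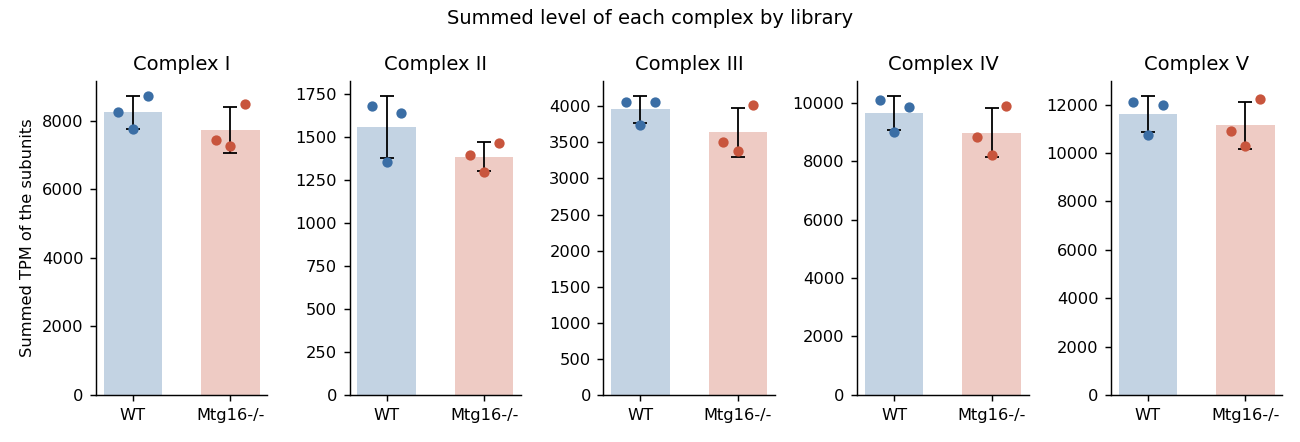
Summed TPM of the subunits of each complex (vertical axes from 0, one panel per complex) in the single libraries (dots) with group mean (bars) and SD (error bars, n = 3). In each panel the Mtg16-/- dots reach into the range of the WT dots, with complex V means of 11614 TPM in WT and 11148 TPM in Mtg16-/-.

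Shared promoter letters were counted for the 76 members with a RefSeq promoter. A gene was counted if any of its promoters matched. An NRF1 motif stood in 19 of them (25%), against 5.19% of all 27025 genes with a promoter and 11.7% of the 9533 tested genes with one. The YY1 motif stood in 11 (14.5%, against 3.19% and 5.45%) and the ETS motif in 18 (23.7%, against 9.93% and 20.7%). NRF1 and ETS factors are known as activators of respiratory chain genes. The SP motif stood in 35 (46.1%, against 38.2% and 68.0%) and the CCAAT box in 34 (44.7%, against 41.1% and 43.3%). Median log2 fold changes were -0.15 for the 19 tested members with an NRF1 motif and -0.10 for the 55 without. With and without the motif they were -0.10 and -0.11 for ETS and -0.07 and -0.11 for YY1. For the SP motif they were -0.11 and -0.10, and for the CCAAT box -0.09 and -0.11. These medians are a description with no test.

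Genes that work with the chain were read from lists by role, and limma called none of them, although Pet117 passed without WT replicate 1 (adjusted p = 0.0999 by limma). Among 7 carriers and subunits outside the symbol rule, 2 had an unadjusted p under 0.05, Cycs and Higd1a, both lower (8.05% of all genes). Higd1a, which associates with complex IV, was at 38.4, 35.4 and 32.2 TPM in WT and 24.35, 18.7 and 25.01 TPM in Mtg16-/-, without overlap (log2 fold change -0.62, adjusted p = 0.233 by limma). Cycs, cytochrome c itself and described because of its value, was at 234, 161 and 174 TPM against 129, 112 and 144 TPM, also without overlap (log2 fold change -0.55, adjusted p = 0.272 by limma). Its partner in complex III, Cyc1, had overlapping groups. Higd2a, the highest of the list by fold change, was at 0.14 on the log2 scale.

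The TCA cycle, which supplies the chain with NADH and succinate, is represented by a list of 16 tested genes. The list includes Pdha1, Pdhb and Dlat of pyruvate dehydrogenase, which feeds the cycle and is not part of it. Its median log2 fold change was -0.07 (0.03 after quantile normalization). At an unadjusted p under 0.05, 5 were lower (Cs, Ogdh, Dlst, Mdh2 and Dlat) and 1 was higher (Suclg2), 37.5% of the list against 14.6% of all genes in either direction. After quantile normalization 4 were lower and 4 higher. With each mouse left out, 1 to 5 were lower and 0 to 2 higher. The counts were 2 and 0 without WT replicate 1 and 1 and 1 without Mtg16-/- replicate 2. The summed TPM was 4704, 3513 and 4148 in WT and 3469, 3138 and 3501 in Mtg16-/-, without overlap but with WT replicate 2 close to Mtg16-/- replicate 3. Ogdh, a subunit of the oxoglutarate dehydrogenase complex, had the lowest fold change, at 355, 201 and 241 TPM against 202, 156 and 126 TPM (log2 fold change -0.70, adjusted p = 0.291 by limma), and Idh2, mitochondrial isocitrate dehydrogenase, the highest at 0.35 (adjusted p = 0.394 by limma). The sum was highest in WT replicate 1, as was the enterocyte marker sum, and the part of that in the difference was not tested.

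Of 44 assembly factors outside the symbol rule, 7 were lower and 4 higher at an unadjusted p under 0.05, 25% of the list against 14.6% of all genes, with a median of -0.11 and a smallest adjusted p of 0.171 by limma. The counts of lower and higher genes were 3 and 4 after median-ratio rescaling and after rescaling without Defa genes, and 2 and 4 after quantile normalization. With each mouse left out, 1 to 9 were lower and 2 to 5 higher, with the lowest count of 1 without Mtg16-/- replicate 2. Sco2, a copper chaperone of complex IV, was at 46.5, 38.1 and 40.8 TPM in WT and 32.1, 27.9 and 34.1 TPM in Mtg16-/- (log2 fold change -0.40). Pet117, also a complex IV factor, was at 0.02, 1.99 and 3.35 TPM against 8.13, 8.10 and 10.5 TPM, the highest fold change of the list (2.06), in a gene of low level. Among 12 genes of coenzyme Q synthesis, Coq8a, an atypical kinase-like protein, was at 13.96, 17.3 and 23.25 TPM against 31.8, 36.1 and 38.95 TPM (log2 fold change 0.96, adjusted p = 0.171 by limma), and Coq5, a methyltransferase, was at -0.40. The sum over the 12 genes overlapped between the groups.

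Regulators of mitochondrial biogenesis went in both directions. Of 14 tested, 2 were lower (Ppargc1b and Esrra) and 2 higher (Tfb2m and Ppara) at an unadjusted p under 0.05, against 14.6% of all genes. The counts of lower and higher genes were 3 and 1 without WT replicate 1, 1 and 0 without Mtg16-/- replicate 2, 0 and 1 without Mtg16-/- replicate 3 and 1 and 3 after quantile normalization. Tfb2m, a mitochondrial transcription factor, had the highest log2 fold change at 0.46 (adjusted p = 0.305 by limma). Ppargc1a, the co-activator PGC-1 alpha, was at 35.1, 13.7 and 18.4 TPM in WT and 19.55, 13.8 and 9.41 TPM in Mtg16-/-, with overlap (log2 fold change -0.57, adjusted p = 0.476 by limma). The median of 78 mitochondrial ribosomal proteins was -0.04 and turned to 0.03 after quantile normalization and 0.01 after rescaling without the Defa genes. Of 92 tested symbols of cytosolic ribosomal proteins, 88 lay above 0, with a median of 0.35 (0.24 to 0.40 under the other scalings). The list was taken by symbol and includes entries named as pseudogenes, such as Rpl14-ps1, Rpl31-ps12 and Rpl34-ps1. Rpl14-ps1 had the highest log2 fold change of the list (1.01) and Rpl32l the lowest (-0.26). Groups lay apart above WT for 50 of the 92, against 9.94% of all genes. Limma called 0, and 14 were higher at an unadjusted p under 0.05, against 6.53% of all genes. Without WT replicate 1 the median was 0.20 and that count was 8, the count was 6 without Mtg16-/- replicate 3 and 9 without Mtg16-/- replicate 2, and it was 26 after rescaling without Defa genes.

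**Figure D5:**
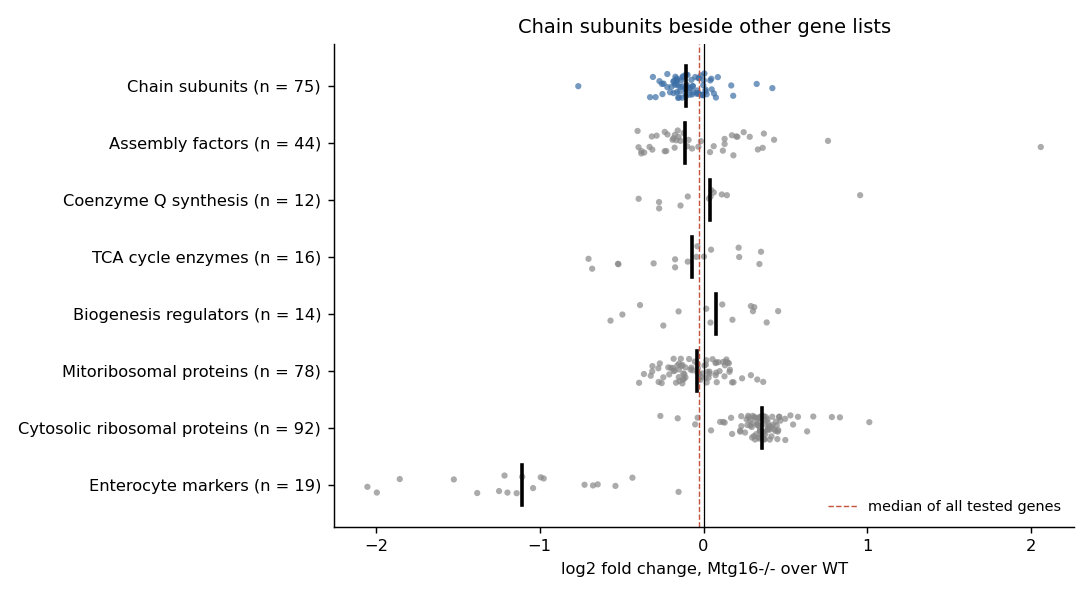
Log2 fold change, Mtg16-/- over WT on log2(TPM + 1), for each gene (dots) of the chain subunits and of 7 other lists, with list medians (black bars), the median of all tested genes (dashed line) and n genes per list. The 75 chain subunits lie close around their median, the cytosolic ribosomal proteins lie mostly above 0, and the 19 enterocyte markers all lie below 0.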

How the data were processed

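RNA-seq of intestinal crypts was analysed for 3 WT and 3 Mtg16-/- mice, grouped by the labels. The authors deposited TPM values from RSEM, 1 per gene symbol and library, rounded to 2 decimals. The submitters' processing notes name cutadapt 1.9.1, STAR 2.5.2a, RSEM 1.3.0, DESeq2 1.12.3 and the build mm10. RSEM divides reads shared by similar genes by estimation, so genes with processed pseudogenes or overlapping neighbours (29 of 92 members overlap another gene) are less certain. TPM keeps no read number, so no counting interval or detection floor was computed and DESeq2 was not run.

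Values were taken as log2(TPM + 1), genes averaging 1 TPM or more were kept, and Mtg16-/- was compared with WT by limma 3.58.1 (R 4.3.3, intensity trend, no covariate, Benjamini-Hochberg over all tested genes). The script was tested on simulated data. Single values and shares were compared by two-sided exact permutation tests. Positions, transcript lengths and promoters were matched by symbol to RefSeq GRCm38.p6 and GENCODE M21, and 76 of 92 members had a promoter. The members and all lists were chosen with earlier results of these data known. A list gene is not reported here and was left out of its list after the values were seen. Values are given for, in each complex, the most abundant member and those with the 2 highest and 2 lowest fold changes, complex II, genes for forms of the same subunit, and the extremes of each partner list. Alternatives were a pseudocount of 0.1, other filters, 3 other scalings, no trend, robust moderation, the replicate number as a block, a threshold of 0.05 and each mouse left out.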

Additional observations from a re-analysis of the deposited data

How the results depend on the processing

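Limma called 0 members under each alternative without a block. Over all genes 4 were called, and the count was 0 without a filter on low values, 15 at a mean TPM of at least 5, 1 after median-ratio rescaling, 1 after quantile normalization, 0 after rescaling without Defa genes, 0 without the intensity trend, 20 with robust moderation, 0 at an adjusted p under 0.05, and 0 to 40 with each mouse left out. The 40 came without WT replicate 1. Members at an unadjusted p under 0.05 numbered 5 after rescaling without Defa genes and 1 to 6 with each mouse left out. The share of all genes at that threshold is not given for these fits, so the counts cannot be set against it. The median log2 fold change of members stayed below 0, from -0.15 to -0.05 with each mouse left out. It was -0.05 without Mtg16-/- replicate 2, against -0.06 for all genes, so the members' median was not the lower one there. It was -0.15 without Mtg16-/- replicate 3, against -0.002 for all genes. Signs turned for Sdhc (0.021) and Uqcr10 (0.0035) after quantile normalization, and for Uqcrc2 (0.017 after median-ratio rescaling, 0.089 after quantile normalization, 0.040 after rescaling without Defa genes). With each mouse left out, Uqcrc2 ranged from -0.081 to 0.059, Ndufa4 from -0.071 to 0.16, Atp5g3 from -0.16 to 0.039 and Atp5j from -0.070 to 0.14. Over all named genes and alternatives, 517 values kept sign and call, 15 turned sign and 7 became calls. The cause was not tested.

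WT and Mtg16-/- mice share replicate numbers but are different animals. Deviations of same-numbered libraries correlated with r = 0.429, 0.0753 and 0.237, and replicates 1 and 3 but not 2 correlated best with their own number. Because one pair lay under the limit of 0.1, the numbers were not taken as pairs. With the replicate number as a block, 1201 of 12268 genes were called. Of the 86 members 2 were called (Cox7a1 at adjusted p = 0.031 and Cox7a2l at adjusted p = 0.0495 by limma), a smaller share than that of all genes. Pet117, Coq8a, Higd1a and Ogdh were called among the named genes of other lists. At an unadjusted p under 0.05 there were 8 of 86 members, and the share of all genes at that threshold in this fit is not given here.

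The unknown depth and 3 mice per group limit the precision.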
